A study of Mus musculus with 2 samples.

Results

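The cytochrome P450 genes of families Cyp1, Cyp2 and Cyp3 were examined in the liver of male normal and male diabetic db/db mice, both on a C57BL/6 background and 9 weeks old, killed about 3 h into the light period. The db/db mice carry a disrupted leptin receptor gene in every tissue and become obese and diabetic, whereas the normal mice are wild type, and the sources used here name no drug given to either group. All genes of the deposited table whose symbol starts with Cyp1, Cyp2 or Cyp3 and a subfamily letter were taken, which gave 31 of the 8551 listed genes, in 10 subfamilies. Each group had 1 library of DpnII tags, a short sequence read next to the last GATC site of each transcript, so no difference below has a replicate check.

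P450 enzymes of these families are heme proteins of the endoplasmic reticulum, and hepatocytes are rich in them. With electrons from NADPH, passed on by P450 oxidoreductase, they insert an oxygen atom into drugs, environmental chemicals, steroids, retinoids and fatty acids. Many are induced through receptors that bind foreign compounds, namely the Ah receptor for Cyp1a, the constitutive androstane receptor (Car, gene Nr1i3) for Cyp2b and the pregnane X receptor (Pxr, gene Nr1i2) for Cyp3a, and several mouse members are made mostly by the liver of 1 sex.

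Levels are in TPM, the tags of a gene when the clean tags of its library are scaled to 1000000. A transcript gives 1 tag whatever its length, so these levels can be set side by side between genes without a length correction. The equal steps between the values put the depth at 10278531 clean tags (normal) and 13508232 clean tags (diabetic), 1 tag being 0.0973 and 0.0740 TPM. The median member had 206 reads in normal and 1017 in diabetic liver. In normal liver 8 members had under 10 reads, in diabetic liver 0. Genes with a mean under 1 TPM are not listed. A gene with under 10 reads in 1 library is therefore listed only if higher in the other. The hepatocyte markers Alb (6801 TPM normal, 6912 TPM diabetic) and Ttr (257 TPM normal, 239 TPM diabetic) were high in both, and 4 of 4 measured hepatocyte markers lay within 1.5-fold. RNA from whole liver cannot tell a change in the number of cells of a type from a change in RNA per cell.

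Since the members are close relatives, the tag that each should give was read from GENCODE M21 transcripts (GRCm38), as GATC and the 16 bases after it, 20 bases in all. A tag could be derived for 29 of the 31 members, and for 25 of them it occurred in no transcript of another gene. The 3 Cyp2b tags are shown because the differences between the libraries turn on them, with a capital for the base that differs between Cyp2b10 and Cyp2b9.
Cyp2b10: gatctgtgctaAtggactct
Cyp2b9: gatctgtgctaGtggactct
Cyp2b13: gatctgcttcttggcccgct

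The first lies at chr7:25926528-25926547 and the next at chr7:26210565-26210584, both on the forward strand in the 3' UTR of their gene. They differ by A12G, counted from 1 at the 5' end with the base of Cyp2b10 first. With a single mismatch allowed in mapping, a tag of either gene could match both. The Cyp2b13 tag, at chr7:26095800-26095819 on the forward strand, covers the end of the last coding exon and the start of the 3' UTR, and the same bases occur in Cyp2b10 upstream of its own last site. Likewise the tag of Cyp2a12 occurs in Cyp2a22 and that of Cyp3a16 in Cyp3a11, but in neither is it the last. The fourth shared tag was that of Cyp2e1, which is also the last tag of an Fcho2 transcript over 20 bases but not over 21. For Cyp2d, 6 of 8 protein-coding genes had a last tag in common with another Cyp2d gene.

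All 31 members were then summed. The sum covers the listed genes only and leaves out 31 of the 60 protein-coding Cyp1, Cyp2 and Cyp3 genes of RefSeq. Together the members were at 10437 TPM in normal and 16288 TPM in diabetic liver, a log2 ratio of 0.64 (95% Clopper-Pearson interval, 0.63 to 0.65), or 1.56-fold. This and the other intervals cover counting error only and no variation between mice. Of the difference of 5851 TPM, 1440 TPM belonged to Cyp3a11, 1152 TPM to Cyp3a25 and 841 TPM to Cyp2c29. Another 1236 TPM belonged to Cyp2e1, whose log2 ratio of 0.25 became -0.004 to -0.057 under the other scalings described next. Without Cyp2e1, the sum went from 3856 TPM to 8471 TPM, 2.20-fold.

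Of the 31 members, 21 were at least 1.5-fold higher in the diabetic library, 67.7% of them, against 34.4% of all listed genes. At least 1.5-fold lower were 3 members, 9.68% against 15.3% of all listed genes. When a false discovery rate (FDR) under 0.001 in an exact binomial test on the reads (Benjamini-Hochberg over all listed genes) was also required, 21 members were higher and 2 lower, while 22.9% and 8.19% of all listed genes were called so. This test compares 2 libraries and not 2 conditions. The median log2 ratio was 1.12 over the members and 0.25 over all listed genes. At least 4-fold higher were 12 members and 3.84% of all listed genes, and 0 members were 4-fold lower. The 21 and the 12 both include the 8 members with under 10 reads in the normal library. Those 8 could be listed only if higher in the diabetic library.

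Since the median of all genes is above 0, the libraries were also scaled in 4 other ways, to equal sums of listed genes, by TMM, by the median ratio and by the upper quartile, which lowered every log2 ratio by 0.25 to 0.31. Under each of them 19 members stayed at least 1.5-fold higher, and Cyp2j6 and Cyp3a13 did not. The numbers lower were then 4, or 5 under median-ratio scaling, with Cyp1a2 added under each and Cyp2f2 under the median ratio. Of all genes past 1.5-fold, 69.2% were higher under the deposited values and 46.1% under median-ratio scaling, and of the members 87.5% and 79.2%.

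**Figure D1:**
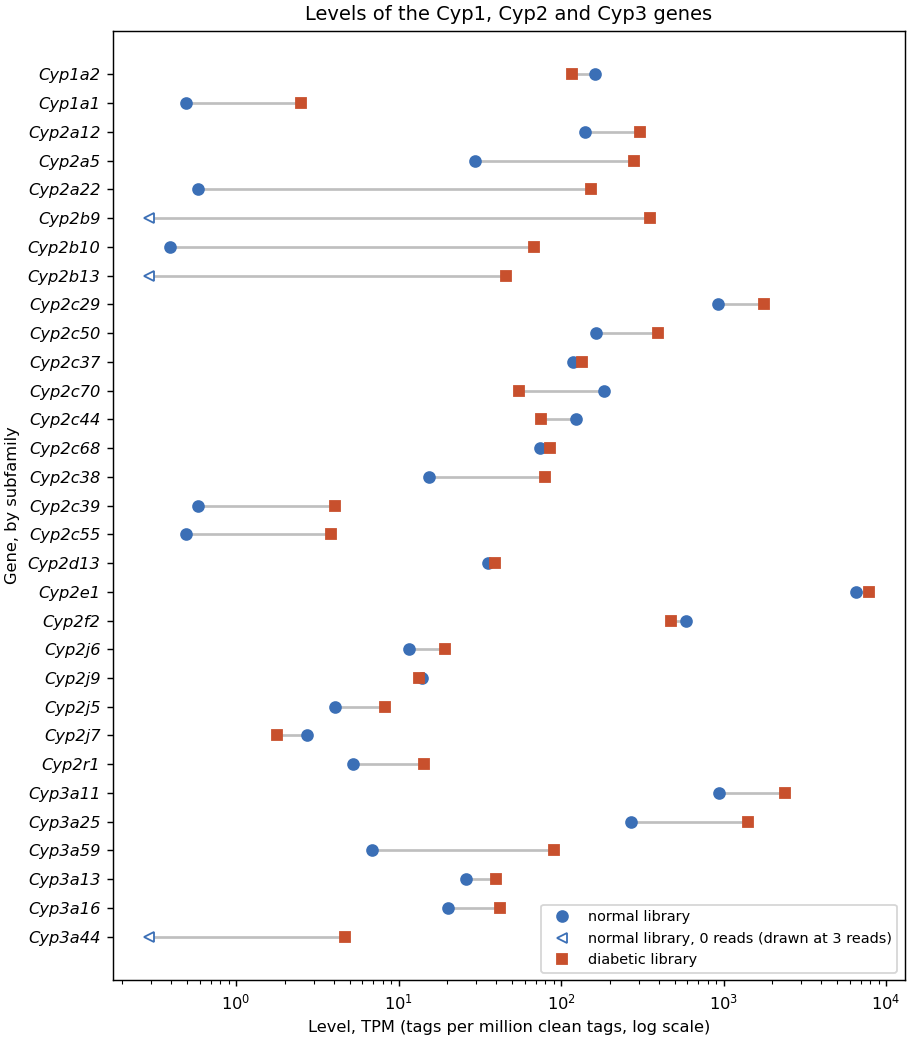
Level of each of the 31 genes in TPM (log axis) in the normal library (circles) and the diabetic library (squares), ordered by subfamily, with 1 library per group and no error bars. The diabetic value lies to the right for 25 genes, Cyp2e1 stands far above the others in both libraries, and the open triangles at 3 reads mark Cyp2b9, Cyp2b13 and Cyp3a44, which had 0 reads in the normal library.

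**Figure D2:**
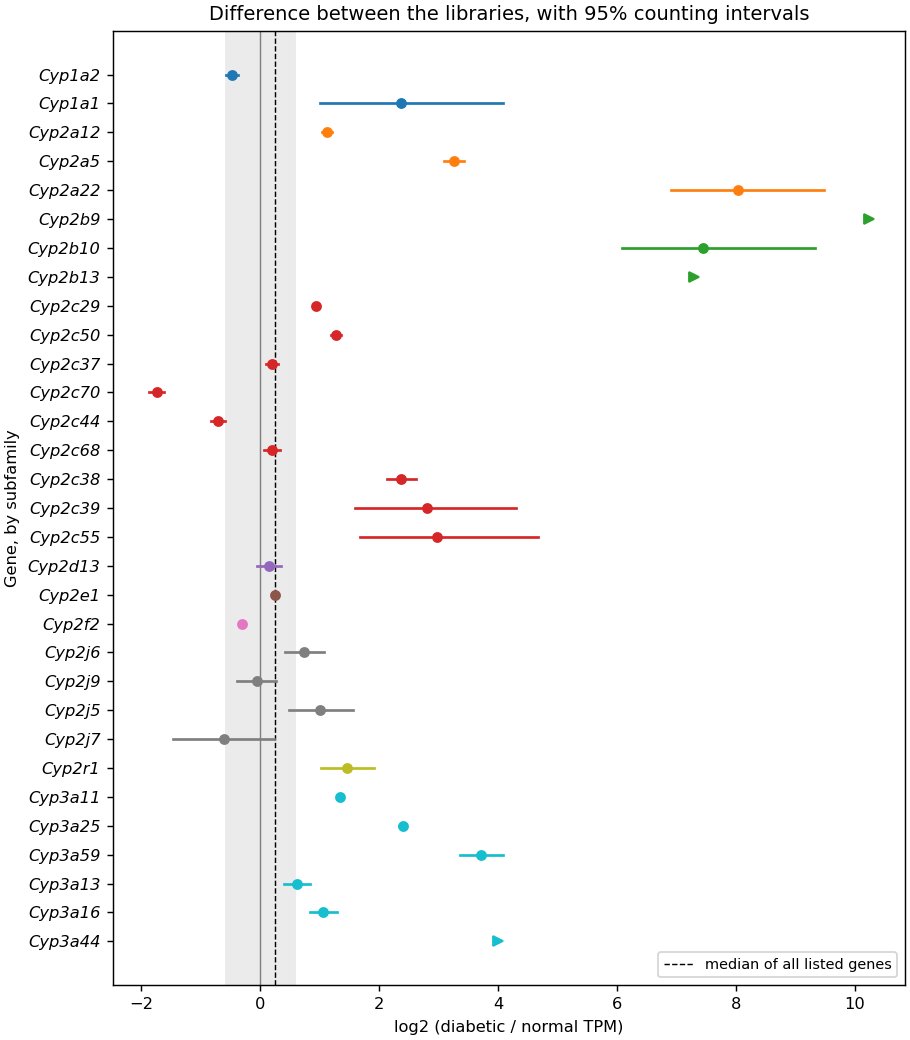
log2 ratio of diabetic over normal TPM for each gene with its 95% counting interval, coloured by subfamily. The grey band spans 1.5-fold in each direction, the dashed line is the median of all listed genes at 0.25, and triangles are lower bounds. The 3 Cyp2b genes and Cyp2a22 lie beyond 7, and Cyp2c70 lies farthest to the left at -1.75.

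The Cyp2b subfamily, the classic phenobarbital-inducible P450s, was almost absent from the normal library and abundant in the diabetic one. In the normal library all 3 members together had 4 reads, 0.39 TPM, all of them from Cyp2b10, and in the diabetic library they had 6295 reads, 466 TPM. The log2 ratio of the deposited sums, in which each 0 is written as 0.01, was 10.15 (95% interval, 8.87 to 12.10).

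Cyp2b9 (Entrez 13094), a steroid-hydroxylating form made mostly by female liver, had 0 reads in the normal library, which allows up to 0.292 TPM, and 4756 reads, 352 TPM, in the diabetic library. Against the floor of 3 reads it was at least 1206-fold higher, a log2 ratio of 10.24, or 9.94 at the lower 95% limit for counting error. This was the highest log2 ratio of all listed genes with that floor, and the gene moved from undetected to the seventh most abundant member. Cyp2b13 (Entrez 13089), also mostly female, had 0 and 617 reads, at least 157-fold higher. Cyp2b10 (Entrez 13088), the main Car target, had 4 reads in normal and 922 in diabetic liver, 0.39 and 68.2 TPM, with a log2 ratio of 7.45 (95% interval, 6.09 to 9.33). All 3 were thus at or near the limit of detection in the same library, and could be listed only if higher in the other.

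The 300 bases around the RefSeq start of these genes (GRCm38.p6, mostly upstream) are shown since the genes moved together. Capitals mark AGGTCA, the half-site that nuclear receptors bind, searched on both strands. All 3 lie on the forward strand, Cyp2b9 at chr7:26173159-26173458, Cyp2b13 at chr7:26061245-26061544 and Cyp2b10 at chr7:25897408-25897707.
Cyp2b9: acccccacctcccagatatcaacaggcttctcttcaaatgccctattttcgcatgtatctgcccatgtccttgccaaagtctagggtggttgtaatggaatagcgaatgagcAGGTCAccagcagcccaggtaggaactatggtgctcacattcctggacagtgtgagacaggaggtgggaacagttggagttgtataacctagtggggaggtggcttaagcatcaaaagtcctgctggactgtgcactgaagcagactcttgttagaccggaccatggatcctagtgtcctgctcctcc
Cyp2b13: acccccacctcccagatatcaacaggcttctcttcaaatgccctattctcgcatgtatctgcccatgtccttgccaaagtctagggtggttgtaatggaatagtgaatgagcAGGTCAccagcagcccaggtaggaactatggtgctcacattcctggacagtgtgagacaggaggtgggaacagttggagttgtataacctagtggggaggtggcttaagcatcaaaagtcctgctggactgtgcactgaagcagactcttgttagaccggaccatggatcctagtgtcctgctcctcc
Cyp2b10: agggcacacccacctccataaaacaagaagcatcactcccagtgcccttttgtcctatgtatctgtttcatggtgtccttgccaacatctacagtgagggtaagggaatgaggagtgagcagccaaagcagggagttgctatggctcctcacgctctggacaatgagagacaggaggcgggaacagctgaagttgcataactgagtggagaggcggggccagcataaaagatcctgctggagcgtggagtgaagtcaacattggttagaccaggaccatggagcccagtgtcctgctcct

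The regions of Cyp2b13 and Cyp2b9 were the same at 298 of 300 bases and differed by C48T and T104C, with the base of Cyp2b13 first and positions from 1 at the 5' end. Cyp2b10 matched either at 229 of 314 aligned columns, 72.9%. The half-site AGGTCA was present in Cyp2b9 and Cyp2b13 and not in this window of Cyp2b10. Among the 28 members with a start region in the table, 12 held it, against 16.3% of all 32851 start regions in the table, and members of a subfamily share much of their sequence. The members are counted by gene, if any start region of the gene held the motif, and the percentages by region. Cyp2c39, counted among the 12, also has a start region without it. The STAT palindrome TTCNNNGAA was in 0 of the 28 and in 8.30% of all start regions, and GCGTG, the core of the site that the Ah receptor binds, was in 5 of 28, Cyp1a1 and Cyp2b10 among them, and in 32.4% of all. These matches are a description of the letters in this window only.

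In the Cyp2a subfamily all 3 measured genes were higher in the diabetic library, and they differed widely from each other. Cyp2a22, with under 10 reads in the normal library, could be listed only if higher in the diabetic library. The sum of the 3 genes went from 172 to 744 TPM, 4.34-fold (log2 ratio 2.12, 95% interval 2.04 to 2.19). Cyp2a12 (Entrez 13085), a testosterone hydroxylase, was the most abundant of them in both libraries, at 141 and 308 TPM, with a log2 ratio of 1.12 (95% interval, 1.04 to 1.21).

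Cyp2a5 (Entrez 13087), the coumarin 7-hydroxylase of mouse liver, had 304 reads in normal and 3819 in diabetic liver, 29.6 and 283 TPM. It was 9.56-fold higher (log2 ratio 3.26, 95% interval 3.09 to 3.43) and came close to Cyp2a12 in level. Cyp2a22 (Entrez 233005) went from 6 reads to 2071 reads, 0.58 and 153 TPM, and its log2 ratio of 8.05 (95% interval, 6.91 to 9.48) was the third highest of all listed genes. The start regions of Cyp2a12 and Cyp2a22 matched at 84.0% of aligned columns, while their log2 ratios were 1.12 and 8.05.

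The Cyp3a subfamily holds the main drug-metabolising P450s of liver, and all 6 measured members were at least 1.5-fold higher in the diabetic library. Of all listed genes 34.4% were that much higher. Cyp3a44, 1 of the 6, could be listed only if higher in the diabetic library. Summed, the 6 members were at 1260 TPM in normal and 3976 TPM in diabetic liver, 3.15-fold (log2 ratio 1.66, 95% interval 1.63 to 1.69). Under the 4 other scalings 5 of the 6 stayed past 1.5-fold, the exception being Cyp3a13.

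Cyp3a11 (Entrez 13112), the main Pxr target, was the second most abundant member in each library, at 937 and 2377 TPM, with a log2 ratio of 1.34 (95% interval, 1.31 to 1.38). Cyp3a25 (Entrez 56388) was at 269.9 TPM in normal and 1422 TPM in diabetic liver, 5.27-fold higher (log2 ratio 2.40, 95% interval 2.34 to 2.46). Cyp3a59 (Entrez 100041449) had 71 and 1224 reads, 6.91 and 90.6 TPM, and was 13.1-fold higher (log2 ratio 3.71, 95% interval 3.37 to 4.08). Cyp3a25 and Cyp3a59 follow each other among the members on chromosome 5, and the one with fewer reads had the larger ratio.

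The start regions of Cyp3a25 (chr5:146009568-146009867, reverse strand) and Cyp3a59 (chr5:146079008-146079307, forward strand) are shown as the most alike pair after Cyp2b9 and Cyp2b13, with AGGTCA or its complement TGACCT in capitals. They were the same at 289 of 300 bases and held the half-site at 2 places each.
Cyp3a25: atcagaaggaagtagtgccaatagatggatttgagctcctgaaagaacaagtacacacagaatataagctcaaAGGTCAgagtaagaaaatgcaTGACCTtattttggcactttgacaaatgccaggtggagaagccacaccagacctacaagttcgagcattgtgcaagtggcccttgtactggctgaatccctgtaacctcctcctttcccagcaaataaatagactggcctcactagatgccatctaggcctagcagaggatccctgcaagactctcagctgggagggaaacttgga
Cyp3a59: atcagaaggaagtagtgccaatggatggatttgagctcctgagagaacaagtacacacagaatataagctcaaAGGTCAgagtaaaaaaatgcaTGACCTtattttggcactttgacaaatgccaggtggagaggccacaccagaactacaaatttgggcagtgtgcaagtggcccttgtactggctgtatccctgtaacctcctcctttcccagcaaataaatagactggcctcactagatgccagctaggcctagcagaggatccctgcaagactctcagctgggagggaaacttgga

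Cyp3a44 (Entrez 337924), a mostly female form, had 0 reads in normal and 63 in diabetic liver, at least 16.0-fold higher. Cyp3a16 (Entrez 13114), a form of fetal and female liver, was at 20.04 and 41.8 TPM, a log2 ratio of 1.06 (95% interval, 0.83 to 1.30). These genes have start regions alike at 93.4% of aligned columns, and 206 reads of the normal library were assigned to Cyp3a16. Its tag also occurs in Cyp3a11, at 937 TPM in normal liver, so these reads alone do not show Cyp3a16 transcripts. Cyp3a13 (Entrez 13113), which is also expressed in the intestine, was at 26.2 and 40.0 TPM and lay just past the threshold at 1.53-fold.

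The Cyp2c subfamily, which oxidises drugs and arachidonic acid, differed in direction among its members. Of its 9 measured members 5 were at least 1.5-fold higher, 2 were lower and 2 lay within 1.5-fold. Of all listed genes 34.4% were that much higher and 15.3% lower. Cyp2c39 and Cyp2c55, counted among the 5, could be listed only if higher in the diabetic library. The summed level was 1602 TPM (normal) and 2597 TPM (diabetic), 1.62-fold (log2 ratio 0.70, 95% interval 0.67 to 0.72).

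Most of this sum was Cyp2c29 (Entrez 13095), a Car-inducible form that was at 923 and 1763 TPM, with a log2 ratio of 0.93 (95% interval, 0.90 to 0.97). Cyp2c50 (Entrez 107141) was at 164 TPM in normal and 396 TPM in diabetic liver, 2.42-fold higher (log2 ratio 1.27, 95% interval 1.19 to 1.35). Cyp2c37 (Entrez 13096), whose start region matched that of Cyp2c50 at 86.6% of aligned columns, was at 118 and 135 TPM, a log2 ratio of only 0.20 (95% interval, 0.09 to 0.30). Cyp2c68 had the same log2 ratio of 0.20 at 74.1 and 85.0 TPM, and for both genes it fell below 0 under each of the 4 other scalings.

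Cyp2c38 (Entrez 13097) was 5.18-fold higher, at 15.4 and 79.6 TPM. Cyp2c39 and Cyp2c55, the latter a form induced by xenobiotics, were the least abundant, with 6 and 55 reads and with 5 and 52 reads. Their log2 ratios of 2.81 and 2.97 had wide 95% intervals of 1.59 to 4.31 and 1.67 to 4.67.

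Cyp2c70 (Entrez 226105), the enzyme that makes muricholic acids from chenodeoxycholic acid in mouse liver, went the other way. It had 1889 reads in normal and 740 in diabetic liver, 184 and 54.8 TPM, and was 3.35-fold lower (log2 ratio -1.75, 95% interval -1.87 to -1.62). It moved from sixth to eighteenth in level among the members. Cyp2c44 (Entrez 226143), an epoxygenase of arachidonic acid that RefSeq names Cyp2c23, was at 123.5 and 75.3 TPM, 1.64-fold lower (log2 ratio -0.71, 95% interval -0.83 to -0.59). These 2 genes and Cyp2j7 were the only members at least 1.5-fold lower under the deposited values.

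Cyp2e1 (Entrez 13106), the ethanol- and acetone-oxidising P450 of the hepatocytes around the central vein, was by far the most abundant member. It was at 6581 TPM in normal and 7817 TPM in diabetic liver, where only 1 listed gene was more abundant. The log2 ratio of 0.25 (95% interval, 0.23 to 0.26) equalled the median of all listed genes. Under the 4 other scalings it was close to 0, at -0.004 to -0.057. With so many reads the counting interval is narrow, but it holds no spread between mice.

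Cyp2f2 (Entrez 13107), a naphthalene-oxidising P450 of the hepatocytes around the portal vein, was at 585 TPM in normal and 472 TPM in diabetic liver. Its log2 ratio was -0.31 (95% interval, -0.36 to -0.26), within 1.5-fold except under median-ratio scaling. Other genes of these zones were counted beside the 34.4% of all listed genes that were at least 1.5-fold higher. Of 8 measured pericentral genes 4 were at least 1.5-fold higher and 1 was lower, and of 5 periportal genes 4 were higher and 0 lower. Their summed levels went from 892 to 2395 TPM and from 1318 to 3642 TPM, with no measured gene of either list at 0. Most of the pericentral rise was 1 gene, Oat, at 338 TPM in normal and 1785 TPM in diabetic liver. The part of these zone genes in the levels of Cyp2e1 and Cyp2f2 was not tested.

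Cyp1a2 (Entrez 13077), which oxidises caffeine and arylamines, was at 163 TPM in normal and 117 TPM in diabetic liver. Its log2 ratio of -0.48 (95% interval, -0.58 to -0.38) lay just within 1.5-fold, at 1.39-fold lower. Under each of the 4 other scalings it was past 1.5-fold lower, at -0.73 to -0.78. Cyp1a1 (Entrez 13076), the most inducible target of the Ah receptor, had only 5 and 34 reads, a log2 ratio of 2.36 (95% interval, 1.01 to 4.08). The 2 genes, which lie side by side on chromosome 9, thus differed in direction. Ahr itself was at 5.06 and 4.96 TPM.

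The other subfamilies held low members. Cyp2r1, the vitamin D 25-hydroxylase, was at 5.25 and 14.4 TPM, 2.75-fold higher (log2 ratio 1.46, 95% interval 1.02 to 1.92). Among the Cyp2j genes, which encode epoxygenases of arachidonic acid, Cyp2j5 was 2.01-fold higher with 42 and 111 reads and Cyp2j6 was 1.67-fold higher with 119 and 261 reads. Cyp2j9 was at 13.9 and 13.3 TPM, and the interval of its log2 ratio, -0.39 to 0.26, spanned 0.

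Cyp2j7 had 28 and 24 reads, 1.53-fold lower by the deposited values, but its interval of -1.47 to 0.22 also spanned 0 and the exact test gave an FDR of 0.19. Cyp2d13, the only Cyp2d gene analysed, was at 35.4 and 39.2 TPM, a log2 ratio of 0.15 (95% interval, -0.05 to 0.34). RefSeq types these last 2 genes as pseudogenes. In all, 29 of the 60 protein-coding Cyp1, Cyp2 and Cyp3 genes of RefSeq were among the members, and the other 31 were not analysed here.

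The make-up of the members' tags was then compared, since a share within a library does not depend on how the libraries are scaled. These shares cover the listed genes only, and Cyp2d is present in them only as the pseudogene Cyp2d13. Cyp2e1 held 63.1% of the members' reads in the normal library (95% Wilson interval, 62.8% to 63.3%) and 48.0% in the diabetic library (47.8% to 48.2%). The Cyp3a share went from 12.1% (11.9% to 12.3%) to 24.4% (24.2% to 24.6%), and that of Cyp2c was 15.4% and 15.9%. In percentage points, Cyp2e1 and Cyp3a had the largest shifts of the 10 subfamilies, and in proportion Cyp2b had, from 0.0037% to 2.86%.

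Among the reads outside Cyp2e1, Cyp2c led in the normal library with 41.5% and Cyp3a led in the diabetic library with 46.9%. Cyp2f2 went from 15.2% to 5.58% and Cyp1a from 4.23% to 1.41%. Cyp2b went from 0.0101% to 5.50% and Cyp2a from 4.45% to 8.78%. The intervals of the libraries overlapped for Cyp2r and for no other subfamily. They cover counting error only, so a gap between them does not show a difference between mice. No such comparison was made for other sets of genes.

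**Figure D3:**
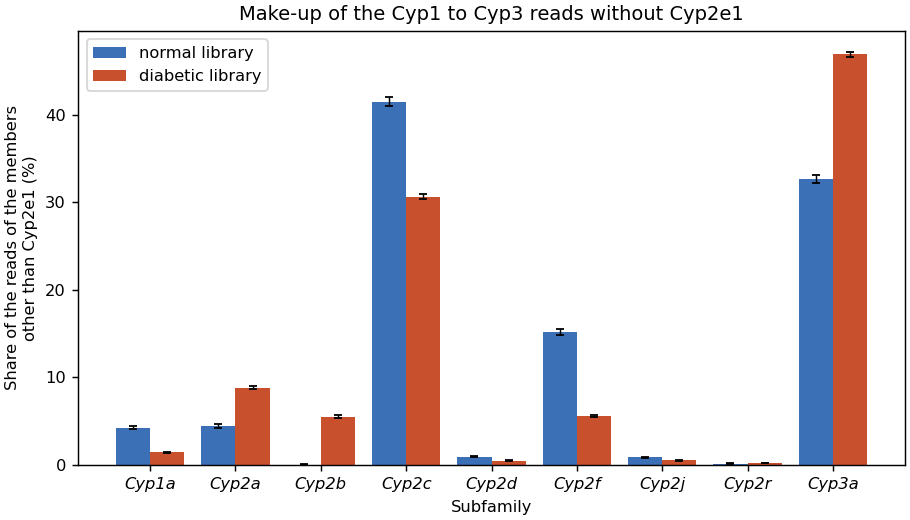
Share of each subfamily, in percent, among the reads of the members other than Cyp2e1, in the normal library (blue) and the diabetic library (orange), with 95% Wilson intervals for counting error. Cyp2c is the tallest bar of the normal library at 41.5% and Cyp3a the tallest of the diabetic library at 46.9%.

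**Figure D4:**
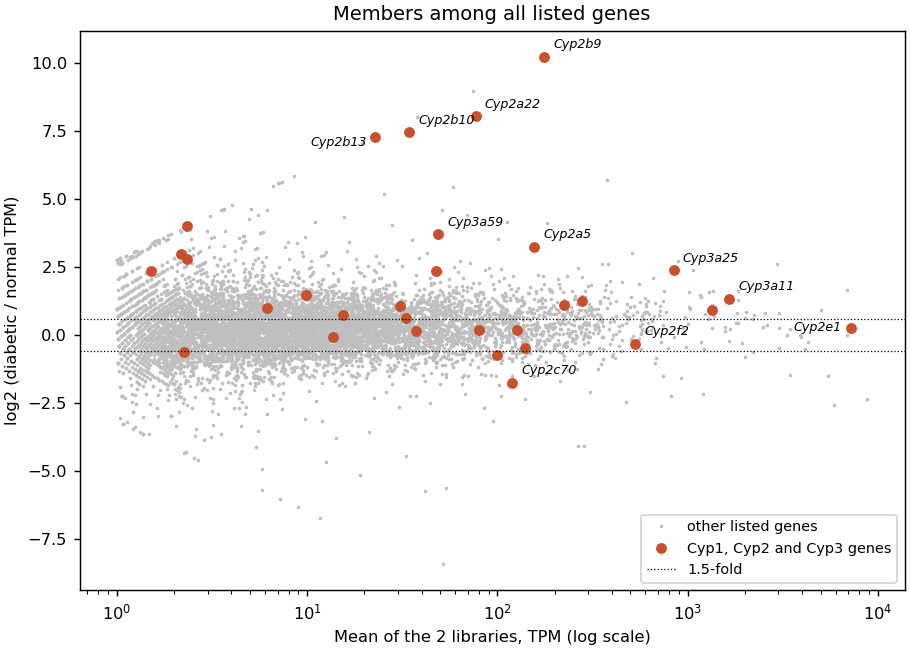
log2 ratio of diabetic over normal TPM against the mean TPM of both libraries (log axis) for all 8551 listed genes, with the 31 members in orange and dotted lines at 1.5-fold. Cyp2b9, Cyp2a22, Cyp2b10 and Cyp2b13 lie at the upper edge, at ranks 1, 3, 5 and 6 of all log2 ratios, and Cyp2e1 lies close to 0 at the right.

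Members of a subfamily are neighbours on the chromosomes, so the ratios were read in the order in which RefSeq (GRCm38.p6) lists the genes. Genes that are not members were left out of this order and can lie between those named. On chromosome 7, Cyp2b10, Cyp2b13, Cyp2b9, Cyp2a5, Cyp2a22 and Cyp2a12 followed each other among the members. All were higher, with log2 ratios from 1.12 to at least 10.24, while the next member, Cyp2f2, was at -0.31. On chromosome 19, the first 4 of 9 members, Cyp2c55, Cyp2c29, Cyp2c39 and Cyp2c38, were at 0.93 to 2.97. The last 2, Cyp2c70 and Cyp2c44, were the lower ones. On chromosome 5 all 6 Cyp3a genes were higher. Several of these genes had under 10 reads in the normal library and could be listed only if higher in the diabetic library. They were Cyp2b10, Cyp2b13, Cyp2b9 and Cyp2a22 on chromosome 7, Cyp2c55 and Cyp2c39 on chromosome 19, and Cyp3a44 on chromosome 5. Their direction was fixed in advance, so the order shows no pattern of direction for them.

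**Figure D5:**
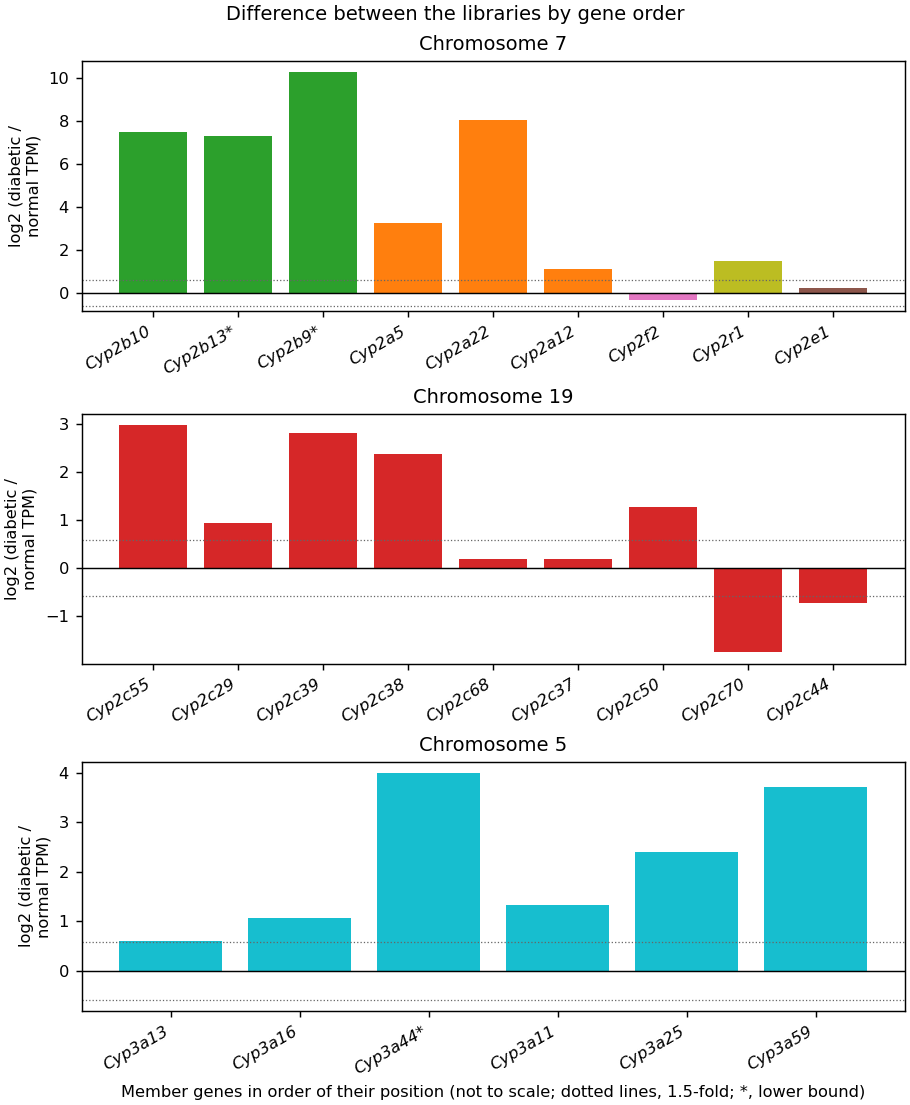
log2 ratio of diabetic over normal TPM for the members on chromosomes 7, 19 and 5, drawn in the order of their position and not to scale, coloured by subfamily, with dotted lines at 1.5-fold and an asterisk at lower bounds. Bars stand above 1.5-fold from Cyp2b10 to Cyp2a12 on chromosome 7 and for all genes of chromosome 5, and on chromosome 19 the 2 rightmost genes point down. Cyp2b10, Cyp2b13, Cyp2b9, Cyp2a22, Cyp2c55, Cyp2c39 and Cyp3a44 could be listed only if higher in the diabetic library.

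Groups of members known for a common control were described by their counts. Of 11 genes listed as female-biased in mouse liver, 6 were measured, Cyp2b9, Cyp2b10, Cyp2b13, Cyp2c39, Cyp3a16 and Cyp3a44. All 6 were at least 1.5-fold higher in these male diabetic mice, as were 67.7% of all members and 34.4% of all listed genes. The median log2 ratio of the 6 was 5.64 when the 3 genes at 0 reads were set to their lower bounds. Their sum went from 21.0 TPM (normal) to 517 TPM (diabetic). All but Cyp3a16, whose tag also occurs in Cyp3a11, were at 0.58 TPM or less in the normal library. At that level a gene has the mean of 1 TPM needed to be listed only if higher in the diabetic library, so their direction was fixed in advance. The male-biased members on the list were not analysed here.

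Of 6 members listed as inducible through Car or Pxr, 5 were at least 1.5-fold higher, Cyp2c37 being the exception. Of all members 67.7% were that much higher, and of all listed genes 34.4%. The median log2 ratio of the 6 was 1.31, against 1.12 over all members. Cyp2b10 and Cyp2c55, with 4 and 5 reads in the normal library, could be listed only if higher in the diabetic library. Cyp2b10 is on both lists. The lists were drawn up with results of these libraries known, so these counts are no independent evidence of a direction.

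The genes around the P450s were examined next. Their counts stand beside 34.4% of all listed genes at least 1.5-fold higher and 15.3% lower. Of 19 measured receptors and regulators, 6 were at least 1.5-fold higher and 2 lower, with a median log2 ratio of 0.19, close to the 0.25 of all listed genes. Cebpb, a liver transcription factor, was the most abundant of those past the threshold, at 119.7 and 188 TPM, 1.57-fold higher, and no longer past it under the other scalings. Nr1i3, which encodes Car, was at 32.5 TPM in normal and 176 TPM in diabetic liver, 5.42-fold higher (log2 ratio 2.44, 95% interval 2.27 to 2.61). Nfe2l2, the regulator of the antioxidant response, was at 33.4 and 151 TPM, 4.53-fold higher. Nr1i2, which encodes Pxr, was at 13.2 and 17.9 TPM, within 1.5-fold. Hnf4a, a central transcription factor of hepatocytes, was at 96.8 and 46.2 TPM, 2.10-fold lower. Under the 4 other scalings 4 of the 19 were higher and 5 lower.

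Of 12 measured genes of electron transfer and heme, 6 were at least 1.5-fold higher and 0 lower. Por, the P450 oxidoreductase that feeds electrons to all members, was at 19.9 TPM in normal and 124 TPM in diabetic liver, 6.25-fold higher (log2 ratio 2.64, 95% interval 2.43 to 2.86). Pgrmc1, a heme-binding partner of P450s, went from 329.5 to 858 TPM, 2.60-fold. Cpox, an enzyme of heme synthesis, was at 43.8 and 101 TPM. Under the other scalings 3 or 4 of the 12 were higher and 1 was lower.

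Of 8 measured other targets of the xenobiotic receptors, 6 were at least 1.5-fold higher and 0 lower, with a median log2 ratio of 1.87, and these counts held under each of the 4 other scalings. The most abundant of them was the retinal dehydrogenase gene Aldh1a1, at 233 and 1550.1 TPM. Gadd45b, 1 of the 6, had 6 reads in the normal library and could be listed only if higher in the diabetic library. Of the 16 P450 genes of other families, 6 were at least 1.5-fold higher and 5 lower, with a median log2 ratio of 0.46. Cyp46a1, 1 of the 6 higher, had 5 reads in the normal library and could also be listed only if higher. A difference between the genes of other families and the members was not tested.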

How the data were processed

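Digital gene expression tags of poly(A) RNA from the livers of normal and db/db mice were analysed, 1 library per group; whether RNA of several mice was pooled, and which of 2 suppliers provided which group, is not given in the sources used here. The authors removed adaptors, compared clean tags with RefSeq (build mm9 per the labels) and deposited values called TPM, which are RPM, tags of a gene with clean tags scaled to 1000000, with 0.01 written for 0. Genes with a mean under 1 TPM are not in the table. The aligner and the mismatches allowed are not given in the sources used here. The paper separates clean tags mapped to a single gene from those mapped to several. It reports what it calls unique genes, but does not state whether tags of several genes were dropped from the values. Reads on listed genes were 3809707 of 10278531 clean tags (normal) and 5993204 of 13508232 (diabetic). The number of other value columns was 0.

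Reads were recovered from the steps of the values. Within 0.1 of a read, 8513 of 8513 normal and 8536 of 8537 diabetic values were whole. Fold changes are diabetic over normal deposited values, with 3 reads in place of 3 or fewer in a library. Intervals are 95% Clopper-Pearson (ratios) and Wilson (shares), and cover counting error alone, since PCR copies of a tag could not be removed. Reads of each gene were compared between libraries by the exact binomial test (two-sided), and p-values of all 8551 genes were adjusted after Benjamini-Hochberg (FDR). Members, lists and named genes (all members; the 10 most abundant, the 6 largest changes in each direction and those near 1.5-fold in full; at most 3 examples of other lists, the most abundant past 1.5-fold, to which Hnf4a, Nr1i2 and Ahr, chosen after their values were seen, were added) were chosen with earlier results of these data known. Marker lists of other liver cells gave, as higher and lower of those measured, 0 and 1 of 4 (Kupffer cell and macrophage), 2 and 1 of 5 (endothelial), 1 and 1 of 4 (stellate), 1 and 0 of 3 (cholangiocyte) and 0 and 0 of 1 (erythroid).

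Alternatives were 4 scalings (equal sums of listed genes, TMM, the median ratio over genes of at least 10 TPM, the upper quartile), pseudocounts of 0.1 and 1 TPM, a mean of at least 5 TPM, the Audic-Claverie test in place of the binomial, a fold of 2 and 20% variation between samples, taken as an assumption. The recovery of reads, the test and the intervals were tested on simulated data. Start regions were from RefSeq (GRCm38.p6) and were aligned end to end. Software was scipy 1.17.1, numpy 2.4.6, Biopython 1.88, pandas 2.3.3 and matplotlib 3.10.9 under Python 3.11.15.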

Additional observations from a re-analysis of the deposited data

How the results depend on the processing

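Over the 4 scalings the number of members at least 1.5-fold higher was 19, against 21 under the deposited values, and the number lower was 4, or 5 under median-ratio scaling, against 3. The median log2 ratio of the members, 1.12 as deposited, was 0.86 with equal sums of listed genes, 0.87 under TMM, 0.82 under the median ratio and 0.85 under the upper quartile. The log2 ratio of their sum, 0.64 as deposited, was 0.38, 0.39, 0.34 and 0.37 in the same order. At a threshold of 2-fold, 18 members were higher and 1, Cyp2c70, was lower, and of all listed genes 1589 and 582, against 2941 and 1310 at 1.5-fold. Under the median ratio 1874 listed genes were higher and 2189 lower, and at a mean of at least 5 TPM 1773 and 658 of 5309 genes. With an assumed variation of 20% between samples, a value that was not measured here, 10 members met the fold and the FDR instead of 23, and of all listed genes 193 were higher and 74 lower instead of 1955 and 700. These 10 were Cyp2a5, Cyp2a22, the 3 Cyp2b genes, Cyp2c38, Cyp3a25, Cyp3a44, Cyp3a59 and, lower, Cyp2c70. A member past 1.5-fold could not change direction under these scalings and pseudocounts. The scalings took at most 0.31 off a log2 ratio, and a pseudocount added to both libraries cannot turn one. With a pseudocount of 1 TPM the log2 ratios of genes with few normal reads were smaller, 8.46 for Cyp2b9, 6.61 for Cyp2a22, 5.64 for Cyp2b10, 5.54 for Cyp2b13 and 2.50 for Cyp3a44, against 10.24, 8.05, 7.45, 7.29 and 3.997. With 0.1 TPM those of the 3 genes at 0 reads were larger, 11.78 for Cyp2b9, 8.84 for Cyp2b13 and 5.57 for Cyp3a44. The log2 ratios of Cyp2e1, Cyp2c37, Cyp2c68 and Cyp2d13, all within 1.5-fold, were above 0 as deposited and below 0 under all 4 scalings. The depth limits Cyp1a1, Cyp2a22, Cyp2b10, Cyp2c39 and Cyp2c55, with 4 to 6 reads in the normal library, and the genes at 0 reads there, for which only a lower bound can be given. No paired analysis was possible because each group had 1 library.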
